A study of Mus musculus with 12 samples.

Results

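The megakaryocyte and platelet genes described here are Itga2b, Itgb3, Rab27b, Selp, Pf4, Gp9, Gp5, Vwf and Nfe2. They were taken by symbol from a table of RNA read counts, in which all 9 were found among 46517 genes. All 9 passed the filter on low counts that left 17842 genes for testing. Megakaryocytes are the large bone marrow cells that shed platelets. They arise from hematopoietic stem and progenitor cells, and part of their programme, including CD41 (the Itga2b protein) and von Willebrand factor, is already transcribed in stem cells. The mature cell builds surface receptors for fibrinogen, collagen and von Willebrand factor, and packs chemokines and adhesion proteins into granules that platelets release when activated. The transcription factor NF-E2 drives the late steps, up to the shedding of platelets.

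RNA was sequenced from sorted bone marrow LSK cells, which lack lineage markers, carry Sca-1 and c-Kit, and include stem cells and multipotent progenitors. There were 12 libraries in 4 groups of 3, labelled p300KO_Tet2KO, Tet2KO, p300KO and WT, from mice 8 to 10 weeks old, 2 weeks after poly(I:C). By the study's methods all mice carried floxed Ep300 alleles (Ep300 fl/fl) on a C57BL/6 background and received poly(I:C), which induces the Mx1 promoter of the Mx1-Cre transgene in blood cells and in other tissues. By the same methods p300KO_Tet2KO mice carried Mx1-Cre and were Tet2-/-, Tet2KO mice were Tet2-/- without Cre, p300KO mice carried Mx1-Cre, and WT mice had neither. The design text with the data can be read as giving Mx1-Cre to all 4 groups, so a difference between a Cre-bearing and a Cre-free group cannot be told apart from an effect of Cre if the methods are right. Tet2-/- is a germline genotype, whereas Ep300 is deleted after injection. Male and female mice were used.

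The RNA of the targeted genes was read first. Ep300 was 173 ± 6.48 CPM in the libraries labelled p300KO_Tet2KO and 336 ± 20.3 CPM in Tet2KO, and 200.02 ± 29.3 CPM in p300KO against 311 ± 27.5 CPM in WT (CPM, counts scaled to library size; mean ± SD, n = 3 libraries, as throughout). Tet2 was 47.7 ± 8.999 CPM in Tet2KO and 132 ± 10.2 CPM in WT, but 125 ± 22.2 CPM in the libraries labelled p300KO_Tet2KO against 163 ± 21.3 CPM in p300KO. The Tet2 RNA of that group therefore did not follow its label, and every direction drawn from it below is that of the libraries as labelled. Total counts ran from 18773903 to 79573664. The 3 WT libraries held Y-linked RNA, whereas Xist with almost no Y-linked RNA was found in p300KO_Tet2KO replicates 1 and 3 and in replicate 3 of both Tet2KO and p300KO, and Tet2KO replicate 1 held both. Kit was 724 to 1056 CPM and Ly6a, which encodes Sca-1, only 14.7 to 32.8 CPM in the 12 libraries. The share of mitochondrial RNA was lowest in p300KO_Tet2KO replicate 2, 0.503%, and elsewhere 1.18% to 1.53%.

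The libraries labelled p300KO held more RNA of 3 surface receptor genes and of Rab27b than those of WT. In p300KO libraries 4 of the 9 genes rose over WT, namely Itga2b, Itgb3, Rab27b and Gp5, by 1.02 to 1.39 on the log2 scale, in a comparison that called 1.06% of all genes tested higher and 2.85% lower. In the libraries labelled p300KO_Tet2KO 1 of the 9 rose over Tet2KO, Itga2b by 0.52, where 1.01% of all genes were called higher and 2.89% lower. Selp alone rose in Tet2KO over WT, by 2.07, where 0.482% of all genes were called higher and 0.151% lower. Pf4 alone was called in the libraries labelled p300KO_Tet2KO against p300KO, where it fell by 2.27 and 0.213% of all genes were called lower and 0.347% higher. Vwf, Gp9 and Nfe2 passed the test in none of these comparisons. A call is a Benjamini-Hochberg adjusted p under 0.05 over all genes in edgeR's quasi-likelihood test. The 9 genes were chosen with earlier results of these data known, so their counts beside the shares of all genes are descriptions. In bulk RNA, fewer cells that express a gene and less RNA per cell cannot be told apart.

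**Figure D1:**
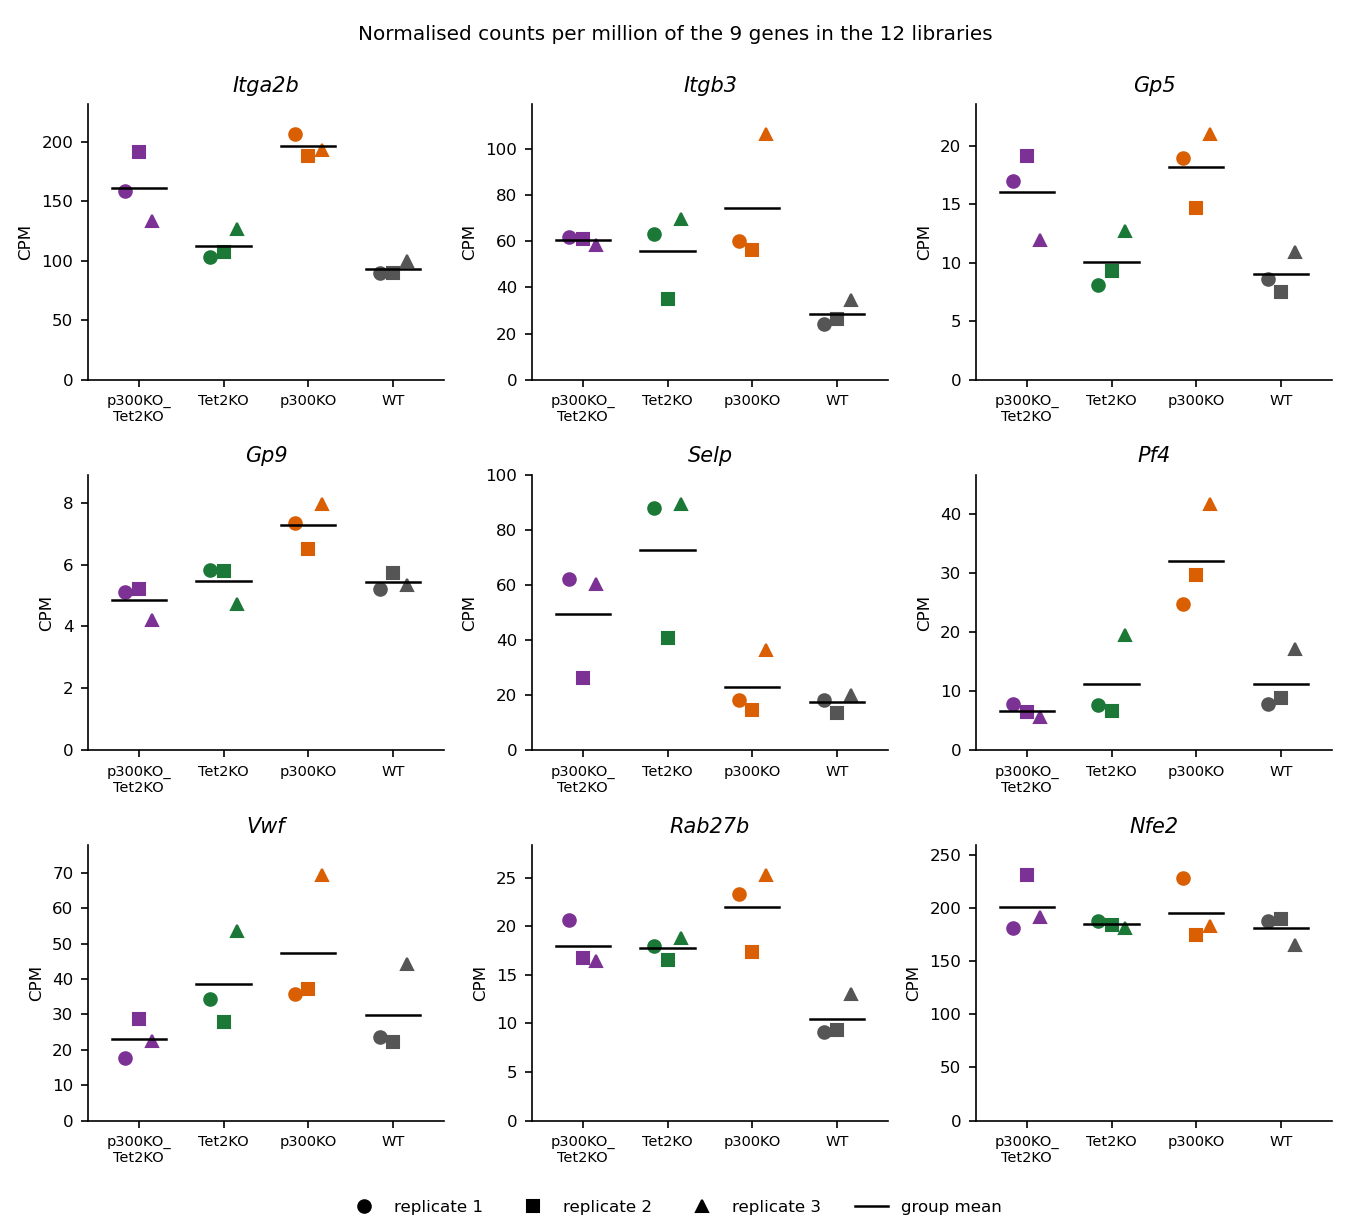
CPM of each of the 9 genes (y axis, from 0, on its own scale) in the 12 libraries, by group along the x axis. Each point is 1 library, its shape gives the replicate number, and the black line is the mean of 3 libraries. Itga2b is between 189 and 207 CPM in p300KO and between 89.8 and 99.8 CPM in WT, whereas the Nfe2 groups overlap.

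Levels between genes were compared per kilobase of exon, in CPM per kb over the 12 libraries. Nfe2 had the highest mean, 63.7 CPM per kb, and its lowest library (55.3) lay above the highest of Itga2b (37.9). Itga2b came next with 25.8 and Pf4 with 21.2 CPM per kb. Pf4 ranged from 7.82 to 57.6 CPM per kb over the libraries, the widest span of the 9 genes, and overlapped with its neighbours in the order on both sides and with Nfe2. Itgb3 (9.28), Selp (9.22), Gp9 (6.53) and Gp5 (6.07 CPM per kb) formed a middle range whose neighbours overlapped. Vwf with 2.16 and Rab27b with 1.60 CPM per kb were lowest and overlapped with each other, and Vwf overlapped with Gp5. Dividing by the longest transcript in place of all exons exchanged the ranks of Itgb3 and Selp and kept the other ranks. The lowest count behind any of these values was 96 reads, for Gp9 in WT replicate 3, with an exact 95% Poisson interval of 77.8 to 117 that covers counting error only.

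**Figure D2:**
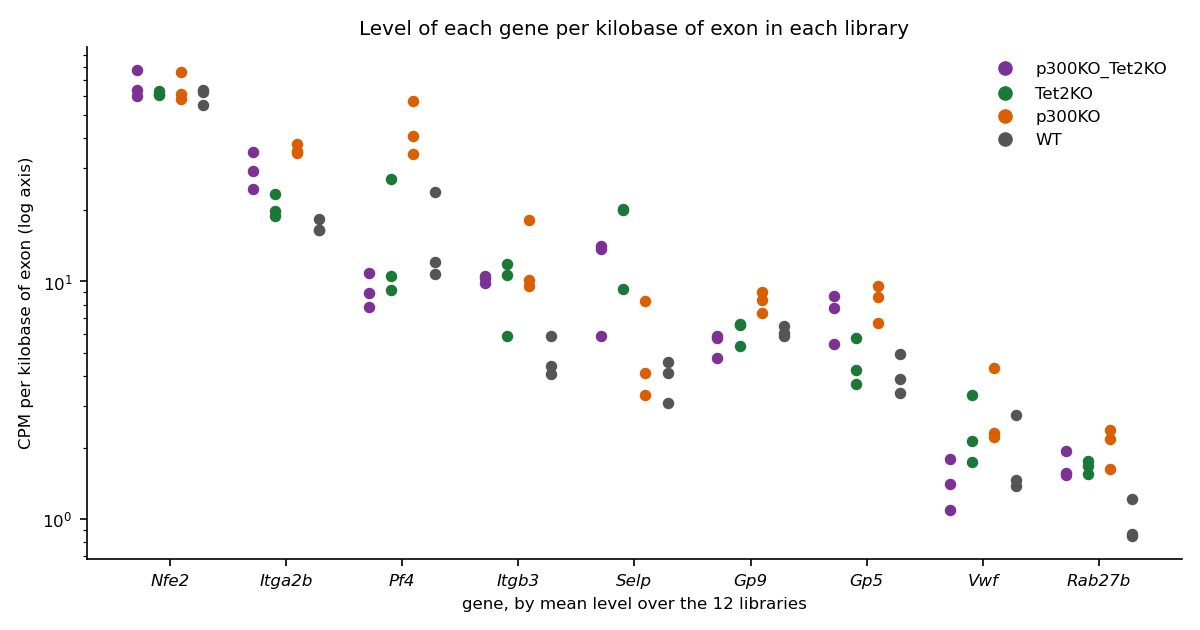
Level of each gene in CPM per kilobase of exon (log axis) in each of the 12 libraries, coloured by group, with genes ordered by their mean. Nfe2 has the highest mean, 63.7, and the highest Pf4 library (57.6) lies above its lowest (55.3).

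Promoter sequences are shown for 4 of the genes whose RNA changed or varied most between groups, so that the words their regulators are known to bind can be read beside the values. They are RefSeq windows on GRCm38.p6 from 250 bases before to 50 after the start. Such a window was found for 5 of the 9 genes (Itga2b, Selp, Pf4, Gp9 and Gp5). Megakaryocyte genes are classically bound by GATA and ETS family factors. Capitals mark, on either strand, the GATA words AGATAA or AGATAG, also with T as the first base, and the ETS words AGGAAG or AGGAAA, also with C as the first base. The windows are chr11:102469834-102470133 on the minus strand for Itga2b, chr16:30310732-30311031 on the minus strand for Gp5, chr5:90772185-90772484 on the plus strand for Pf4 and chr1:164115014-164115313 on the plus strand for Selp.
Itga2b: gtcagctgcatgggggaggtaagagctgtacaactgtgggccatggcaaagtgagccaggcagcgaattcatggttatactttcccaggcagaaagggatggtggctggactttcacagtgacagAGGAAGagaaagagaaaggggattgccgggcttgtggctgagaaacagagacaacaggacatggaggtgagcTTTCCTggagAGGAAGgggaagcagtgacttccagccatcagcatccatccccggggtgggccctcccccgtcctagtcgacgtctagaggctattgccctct
Gp5: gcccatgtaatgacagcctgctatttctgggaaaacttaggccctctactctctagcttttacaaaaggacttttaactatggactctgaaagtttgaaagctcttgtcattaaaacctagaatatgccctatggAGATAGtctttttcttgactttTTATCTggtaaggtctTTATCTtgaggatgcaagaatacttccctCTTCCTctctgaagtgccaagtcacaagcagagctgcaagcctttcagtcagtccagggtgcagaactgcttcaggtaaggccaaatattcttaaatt
Pf4: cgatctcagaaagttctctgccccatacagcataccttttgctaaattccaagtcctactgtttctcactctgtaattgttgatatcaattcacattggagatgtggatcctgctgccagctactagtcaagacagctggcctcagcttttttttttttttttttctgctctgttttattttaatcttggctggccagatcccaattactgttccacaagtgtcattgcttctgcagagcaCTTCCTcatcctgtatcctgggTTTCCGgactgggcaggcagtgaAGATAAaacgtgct
Selp: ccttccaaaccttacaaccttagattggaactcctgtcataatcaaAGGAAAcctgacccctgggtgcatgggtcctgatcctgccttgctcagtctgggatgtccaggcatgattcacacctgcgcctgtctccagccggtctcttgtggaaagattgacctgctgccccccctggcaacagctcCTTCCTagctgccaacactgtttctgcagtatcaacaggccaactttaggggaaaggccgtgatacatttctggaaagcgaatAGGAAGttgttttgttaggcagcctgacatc

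At least 1 GATA word occurs in 29.8% and at least 1 ETS word in 64.7% of 32851 mouse promoter windows of the same length. Gp5 held 3 GATA words, which begin 115, 93 and 77 bases before the start, and 1 ETS word. Itga2b held 3 ETS words and no GATA word, Pf4 held 2 ETS words and 1 GATA word that lies 37 to 42 bases after the start, and Selp held 3 ETS words. The NF-E2 word TGANTCA, present in 7.81% of windows, was found in 1 of the 5, that of Selp. The Gp9 window held 2 ETS words that overlap each other and 2 of the RUNX words TGTGGT or TGCGGT, which 22.4% of windows hold. A word is a match of letters and not a bound site.

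Itga2b and Itgb3 encode the 2 chains of the fibrinogen receptor of platelets, integrin αIIb and integrin β3. Both lie on mouse chromosome 11 (mm10), Itga2b at 102453297 to 102470122 on the minus strand and Itgb3 at 104608000 to 104670476 on the plus strand. Itga2b was at 207, 189 and 193 CPM in p300KO and at 90.1, 89.8 and 99.8 CPM in WT. All p300KO libraries were above all WT libraries. The difference was 1.07 on the log2 scale (SE 0.12, edgeR adjusted p = 7.09e-04), a fold change of 2.11, and it was called in all 21 alternative fits. In the libraries labelled p300KO_Tet2KO Itga2b was at 159, 192 and 133 CPM, against 103, 108 and 127 CPM in Tet2KO. The groups again did not overlap, but the replicate 3 libraries of both lay close to each other. The difference was 0.52 (SE 0.12, edgeR adjusted p = 0.0327). This call was lost when any of 7 libraries was left out (WT replicates 1 and 2, p300KO replicate 3, Tet2KO replicates 1 and 2, p300KO_Tet2KO replicates 1 and 2), with adjusted p up to 0.123, and in a fit of the 6 libraries compared (adjusted p = 0.133). Between Tet2KO and WT Itga2b differed by 0.27 (SE 0.12, edgeR adjusted p = 0.372).

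Itgb3 was at 60.0, 56.3 and 107 CPM in p300KO, against 24.2, 26.1 and 34.7 CPM in WT. Every p300KO library was above every WT library, with replicate 3 highest in each. The difference was 1.39 (SE 0.27, edgeR adjusted p = 0.0138). Without WT replicate 1 or without WT replicate 2 it was no longer called (adjusted p = 0.0793 and 0.0681). Itgb3 was at 62.1, 61.1 and 58.3 CPM in the libraries labelled p300KO_Tet2KO and at 63.0, 34.8 and 69.9 CPM in Tet2KO. These groups overlapped, since Tet2KO replicate 2 was low and the other libraries were alike, and the difference of 0.12 had a 95% interval of −0.46 to 0.69. Tet2KO lay above WT in every library, with a difference of 0.99 (SE 0.27, edgeR adjusted p = 0.138). Itgb3 and Rab27b were the pair among the 9 genes, after Itga2b and Gp5, whose log2 levels ran most closely together over the 12 libraries (Pearson's r = 0.911).

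Gp5 and Gp9 encode subunits of the GPIb-IX-V complex, by which platelets bind von Willebrand factor. Gp5 lies on chromosome 16 at 30307685 to 30310779 on the minus strand and Gp9 on chromosome 6 at 87778072 to 87779768 on the plus strand. Gp5 was at 18.96, 14.7 and 21.0 CPM in p300KO and at 8.59, 7.47 and 10.9 CPM in WT. The groups did not overlap, and the difference was 1.02 (SE 0.23, edgeR adjusted p = 0.0251). It was not called without WT replicate 1, WT replicate 2, p300KO replicate 1 or p300KO replicate 3, with adjusted p from 0.0761 to 0.118. In the libraries labelled p300KO_Tet2KO Gp5 was at 17.0, 19.1 and 11.97 CPM, against 8.13, 9.28 and 12.8 CPM in Tet2KO. Both replicate 3 libraries fell in the gap between the other libraries, so that the groups overlapped. The difference of 0.68 (SE 0.22) had an edgeR adjusted p of 0.122. It was called in 0 of 12 fits that left out 1 library (edgeR adjusted p up to 0.346). The DESeq2 Wald test and limma-voom called it (adjusted p = 0.0395 and 0.0482). So did a fit without replicate 3 of all 4 groups, chosen after the data were seen, at 1.05 (edgeR adjusted p = 0.0244). That fit leaves out the libraries that made the groups overlap, so its call is no separate support. Averaged over both comparisons by p300 label, the mean p300 effect on Gp5 was 0.85 (SE 0.16, edgeR adjusted p = 0.00450), and dropping any 1 of the 12 libraries kept the call.

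Gp9 was the least abundant of the 9 genes in CPM, at 7.35, 6.51 and 7.95 CPM in p300KO and at 5.21, 5.73 and 5.35 CPM in WT. Its groups did not overlap, but the difference of 0.42 (SE 0.17) did not pass the test (edgeR adjusted p = 0.224). The libraries labelled p300KO_Tet2KO had 5.12, 5.21 and 4.21 CPM and Tet2KO had 5.83, 5.80 and 4.74 CPM. Those groups overlapped, with replicate 3 lowest in each. The libraries labelled p300KO_Tet2KO were all below the p300KO libraries (log2 −0.58, SE 0.17, edgeR adjusted p = 0.198).

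Pf4, Vwf and Selp are cargo of platelet alpha granules. Pf4 (chromosome 5 at 90772435 to 90773383, plus strand) encodes the chemokine platelet factor 4. It was at 24.8, 29.6 and 41.5 CPM in p300KO, against 7.76, 8.74 and 17.1 CPM in WT. The groups did not overlap, and the difference was 1.53 (SE 0.40) with an edgeR adjusted p of 0.0506, just outside the threshold. Of 21 alternative fits 10 called it, among them the fit of the 6 libraries compared (adjusted p = 0.0248), with adjusted p up to 0.221 without WT replicate 1. Pf4 was at 7.83, 6.44 and 5.64 CPM in the libraries labelled p300KO_Tet2KO. This group had the lowest mean of the 4, 6.64 ± 1.11 CPM, and all its libraries lay below p300KO (log2 −2.27, SE 0.41, edgeR adjusted p = 0.0289), a fold change of 0.207. This call was lost without p300KO replicate 2 or 3 or without any 1 of the libraries labelled p300KO_Tet2KO (adjusted p from 0.0667 to 0.125). Tet2KO had 7.63, 6.67 and 19.4 CPM, so that replicates 1 and 2 were within the range of the libraries labelled p300KO_Tet2KO and replicate 3 was near WT replicate 3. The difference between those groups was −0.74 (SE 0.40, edgeR adjusted p = 0.387), and Tet2KO and WT differed by 0.01 (95% interval −0.84 to 0.86).

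Vwf (chromosome 6 at 125546774 to 125686679, plus strand) encodes von Willebrand factor, the ligand of GPIb-IX-V, which marks platelet-biased stem cells in mice and is also made by endothelium. It was at 35.8, 37.1 and 69.5 CPM in p300KO and at 23.5, 22.2 and 44.3 CPM in WT. Replicate 3 was the highest in both groups, the groups overlapped and the difference was 0.67 (SE 0.33, edgeR adjusted p = 0.356). The libraries labelled p300KO_Tet2KO had 17.6, 28.8 and 22.6 CPM, and Tet2KO had 34.2, 27.9 and 53.7 CPM. They overlapped in Tet2KO replicate 2, with a difference of −0.73 (SE 0.33, edgeR adjusted p = 0.295). The libraries labelled p300KO_Tet2KO were all below those of p300KO (log2 −1.03, SE 0.33, edgeR adjusted p = 0.288).

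Selp (chromosome 1 at 164115264 to 164150026, plus strand) encodes P-selectin, which moves from granules to the surface of activated platelets and endothelium and binds leukocytes. Its exons overlap those of Gm16587 by 186 and of Gm16548 by 438 bases on the opposite strand. Whether the counting used strand is not given in the sources used here, and without it those reads cannot be told apart. Selp was at 88.0, 40.9 and 89.4 CPM in Tet2KO, against 18.3, 13.6 and 20.2 CPM in WT. Every Tet2KO library was above every WT library, and replicate 2 was the lowest of both groups. The difference was 2.07 (SE 0.41, edgeR adjusted p = 0.0402), a fold change of 4.203 and the widest rise of the 9 genes in any comparison. It was not called without WT replicate 1, 2 or 3, Tet2KO replicate 1 or 3, p300KO replicate 1 or p300KO_Tet2KO replicate 3 (adjusted p from 0.0506 to 0.205), although its size stayed between 1.91 and 2.36. The libraries labelled p300KO_Tet2KO had 62.2, 26.1 and 60.4 CPM and p300KO had 18.1, 14.7 and 36.5 CPM. These overlapped, and the difference of 1.11 (SE 0.40) had an edgeR adjusted p of 0.347. Against Tet2KO the libraries labelled p300KO_Tet2KO differed by −0.56 (SE 0.39, edgeR adjusted p = 0.528).

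The libraries with high Selp within each group were those with Xist RNA. They were replicates 1 and 3 of p300KO_Tet2KO, replicates 1 and 3 of Tet2KO and replicate 3 of p300KO, while the libraries without Xist had 26.1 CPM (p300KO_Tet2KO replicate 2), 40.9 CPM (Tet2KO replicate 2), 18.1 and 14.7 CPM (p300KO replicates 1 and 2) and 13.6 to 20.2 CPM (WT). With the share of missing Y-linked RNA as a covariate, Tet2KO lay above WT in Selp, by 1.58 (edgeR adjusted p = 0.00248), and the libraries labelled p300KO_Tet2KO were below Tet2KO (log2 −0.88, edgeR adjusted p = 0.0162). Tet2KO replicate 1, with 177 CPM of Y-linked RNA beside Xist, has a middle value of this covariate, although its Selp was as high as in replicate 3. Both adjusted differences depend on that value. The covariate itself was read after the values were seen. It was built from Y-linked RNA alone and not from Xist. Its term for Selp was 1.27 higher where Y-linked RNA was missing (log2, SE 0.18, edgeR adjusted p = 0.0264), where 0.118% of all genes were called. Selp was the 1 gene of the 9 called. The term ranged from 1.17 to 1.45 when libraries were left out in turn and was called in 5 of 12 such fits, with an adjusted p up to 0.202. For Itgb3 it was 0.61 and for Pf4 0.74 (edgeR adjusted p = 0.339 and 0.441). WT held no library with Xist, so sex within WT could not be compared. The adjusted difference from WT therefore rests mostly on a slope taken from the other groups, and it cannot separate sex from genotype.

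Rab27b (chromosome 18 at 69979131 to 70141605, minus strand) encodes a small GTPase for the formation and release of platelet granules. It was at 23.3, 17.3 and 25.3 CPM in p300KO, against 9.10, 9.29 and 12.99 CPM in WT. The groups did not overlap, and the difference was 1.08 (SE 0.17, edgeR adjusted p = 0.00535), called in all 21 alternative fits. It was at 20.7, 16.7 and 16.4 CPM in the libraries labelled p300KO_Tet2KO and at 18.0, 16.5 and 18.8 CPM in Tet2KO. These groups overlapped, and the difference of 0.01 had a 95% interval of −0.36 to 0.38. Tet2KO was above WT in every library, by 0.77 (SE 0.17, edgeR adjusted p = 0.0705). WT had the lowest mean of the 4 groups, 10.5 ± 2.19 CPM.

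Nfe2 (chromosome 15 at 103248212 to 103258403, minus strand) encodes the larger subunit of NF-E2, which dimerises with small Maf proteins. It was at 181, 231 and 191 CPM in the libraries labelled p300KO_Tet2KO and at 188, 184 and 181 CPM in Tet2KO. p300KO had 228, 175 and 183 CPM, and WT had 188, 189.9 and 165 CPM. All groups overlapped. The differences were between 0.03 and 0.12 on the log2 scale in these comparisons and in Tet2KO against WT, the widest with a 95% interval of −0.12 to 0.37. Its partners Mafg and Mafk, at 91.3 ± 6.93 and 73.9 ± 9.58 CPM in Tet2KO and at 86.7 ± 4.23 and 80.1 ± 12.5 CPM in WT, were also not called.

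**Figure D3:**
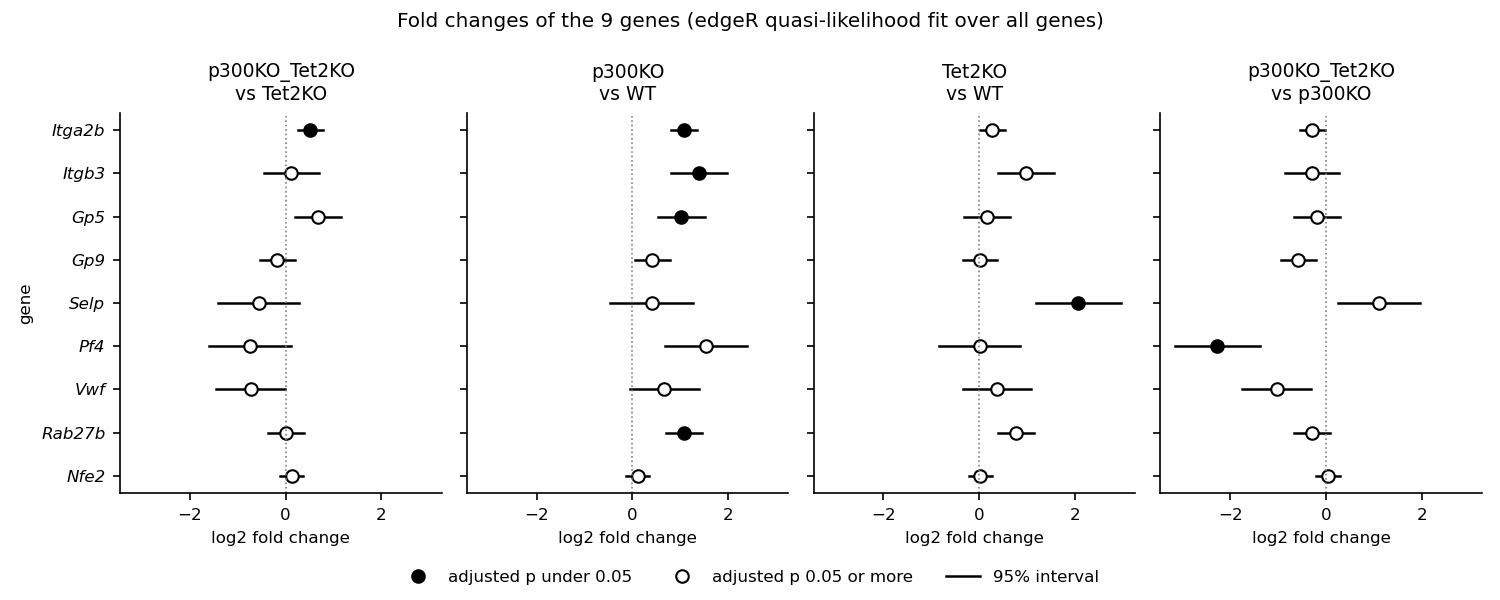
Log2 fold change (x axis) of each of the 9 genes (rows) in 4 comparisons, with 95% intervals, and filled points where the edgeR adjusted p is under 0.05. In p300KO against WT all 9 values lie above 0 and 4 points are filled, whereas in the libraries labelled p300KO_Tet2KO against Tet2KO only Itga2b, at 0.52, is filled.

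Set side by side, the 9 genes had a median difference of 1.02 in p300KO against WT, where that of all genes tested was 0.01, and of 0.01 in the libraries labelled p300KO_Tet2KO against Tet2KO, where that of all genes was 0.02. In p300KO against WT 6 of the 9 genes had no overlap between the groups and were higher (10.6% of all genes did), namely Itga2b, Itgb3, Rab27b, Pf4, Gp9 and Gp5, and none was lower (13.2%). In the libraries labelled p300KO_Tet2KO against Tet2KO this held for Itga2b alone (9.61% of all genes), and none was lower without overlap (10.1%). The difference of these 2 effects, the interaction, was negative for 8 of the 9 genes, Nfe2 being the exception. It was −2.28 for Pf4 (SE 0.56), −1.40 for Vwf (SE 0.47), −1.28 for Itgb3 (SE 0.38) and −1.06 for Rab27b (SE 0.24). It was called for no gene in edgeR (0 of 17842 genes, adjusted p = 0.553 for Pf4 and 0.507 for Rab27b) nor in limma-voom, whereas the DESeq2 Wald test called 49 genes, with Rab27b among them. At an unadjusted p under 0.05, 6 of the 9 genes passed (Itga2b, Itgb3, Rab27b, Pf4, Gp9 and Vwf), where 1268 of all genes (7.11%) did. The 9 genes were chosen with earlier results of these data known. Their shares and medians beside those of all genes, here and below, are therefore descriptions and no test. Averaged over both comparisons by p300 label, the mean p300 effect was called for Itga2b (0.80), Itgb3 (0.76), Rab27b (0.55) and Gp5 (0.85). That comparison called 3.05% of all genes higher and 6.01% lower. For Itgb3 and Rab27b the average came from p300KO against WT (1.39 and 1.08). In the libraries labelled p300KO_Tet2KO against Tet2KO they differed by 0.12 and 0.01. The Itgb3 call of the average held in 9 of 12 fits that left out 1 library (edgeR adjusted p up to 0.0695).

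In Tet2KO against WT the median of the 9 genes was 0.27 and that of all genes 5.19e-04. Of the 9 genes 4 were higher without overlap, Itga2b, Itgb3, Rab27b and Selp (11.0% of all genes), of which Selp was called, and none was lower (10.4%). In the libraries labelled p300KO_Tet2KO against p300KO the median was −0.29, and Pf4, Gp9 and Vwf were lower without overlap (6.51% of all genes), and none was higher (7.65%). The 2 last comparisons share libraries with those of p300 loss and are no separate evidence on them.

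**Figure D4:**
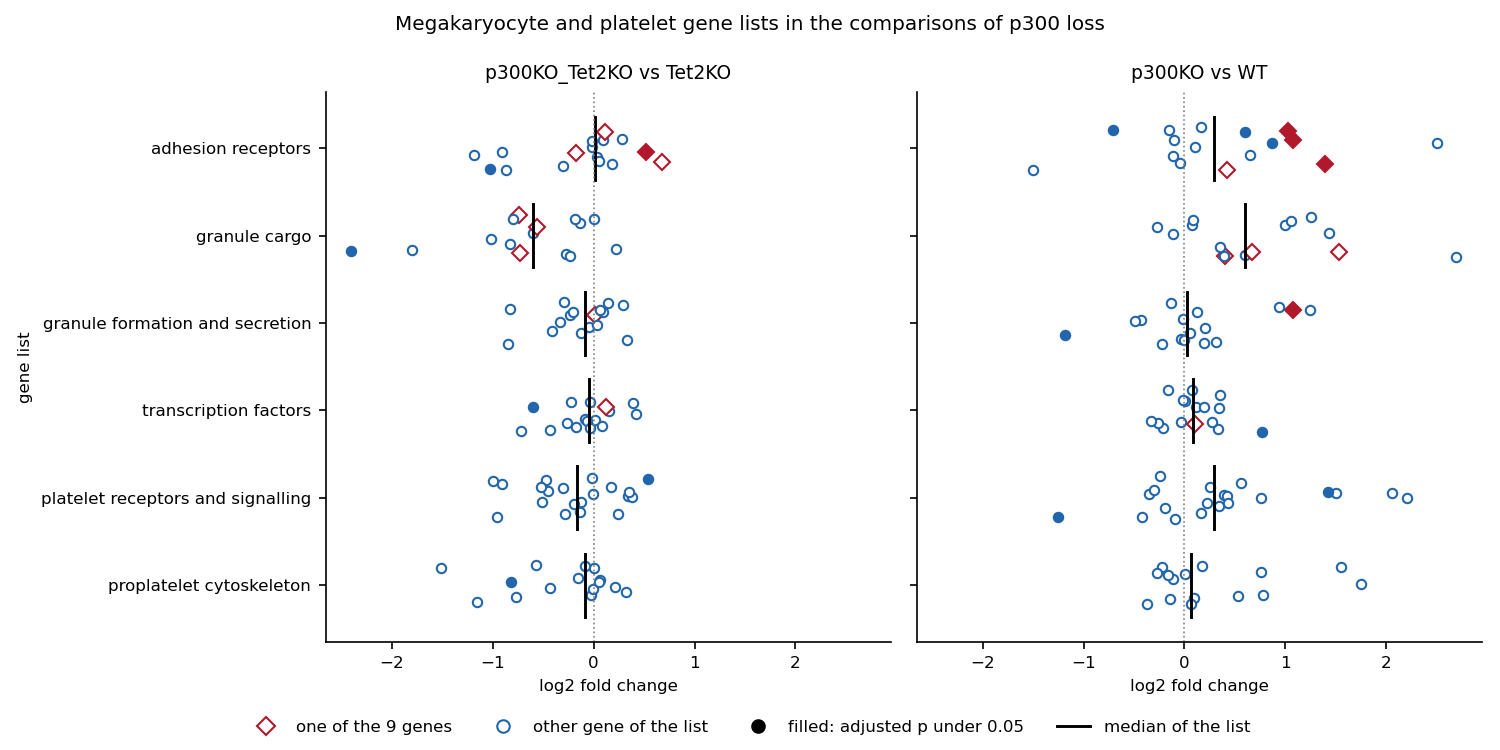
Log2 fold change (x axis) of each tested gene in 6 lists of megakaryocyte and platelet genes (rows), for the libraries labelled p300KO_Tet2KO against Tet2KO and for p300KO against WT. Diamonds are the 9 genes, circles the other genes of a list, filled symbols have an edgeR adjusted p under 0.05 and black lines are medians. The granule cargo list has a median of −0.60 on the left and of 0.60 on the right, with 1 and 0 genes called.

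Other genes of the platelet programme are given for 6 lists, some of which also hold genes of the 9. For the counts called in these lists, p300KO against WT called 1.06% of all genes higher and 2.85% lower. The libraries labelled p300KO_Tet2KO against Tet2KO called 1.01% higher and 2.89% lower. Among 16 adhesion receptor genes, with Itga2b, Itgb3, Gp5 and Gp9 among them, p300KO against WT called 5 higher and 1 lower (median 0.29). Of the 12 outside the 9 genes, 2 were called higher and 1 lower, with a median of 0.03, where that of all genes was 0.01. Besides Itga2b, Itgb3 and Gp5 the higher ones were Cd9, a tetraspanin of platelets and stem cells, at 45.8 ± 2.68 CPM in p300KO and 25.1 ± 2.99 CPM in WT (0.87, edgeR adjusted p = 0.00113), and Gp1ba, the von Willebrand factor binding subunit of GPIb-IX-V, at 19.8 ± 2.74 and 12.97 ± 1.10 CPM (0.60, edgeR adjusted p = 0.0453). Pecam1, an adhesion receptor that also restrains platelet activation, fell to 83.1 ± 11.3 CPM in p300KO, against 136 ± 3.10 CPM in WT (−0.71, edgeR adjusted p = 0.00167). It fell likewise to 72.9 ± 4.92 CPM in the libraries labelled p300KO_Tet2KO, against 149 ± 6.28 CPM in Tet2KO (−1.03, edgeR adjusted p = 1.48e-04). In that comparison Itga2b was the 1 gene of the list called higher and Pecam1 the 1 called lower. The list's median was 0.01, and −0.02 for the 12 outside the 9 genes. Gp1bb, the other GPIb chain, was at 2.91 ± 1.53 CPM in p300KO and 1.87 ± 0.734 CPM in WT, and Gp6, the collagen receptor, at 1.10 ± 1.32 and 0.233 ± 0.285 CPM, and neither was called.

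Of 16 granule cargo genes 15 were tested, and few were called in the comparisons of p300 loss. The list's median was 0.60 in p300KO against WT with 0 calls (0.50 without Pf4, Vwf and Selp). It was −0.60 in the libraries labelled p300KO_Tet2KO against Tet2KO with 1 call (−0.44 without the same genes). That gene was F13a1, the A chain of coagulation factor XIII, which monocytes also make, at 31.1 ± 11.99 CPM in the libraries labelled p300KO_Tet2KO and 163 ± 99.9 CPM in Tet2KO (−2.40, edgeR adjusted p = 0.0210). Ppbp, a platelet chemokine next to Pf4 in function, varied from 2.86 to 46.7 CPM within p300KO and from 2.10 to 4.96 CPM in WT, with no call. Among 16 genes of granule formation and secretion p300KO against WT called Rab27b higher and Slc35d3, needed for dense granules in mice, lower (11.5 ± 2.58 CPM in p300KO, 25.9 ± 5.36 CPM in WT, −1.18, edgeR adjusted p = 0.0307). The libraries labelled p300KO_Tet2KO had less Snap23, a fusion protein of granule release, than p300KO (30.5 ± 5.64 and 46.8 ± 3.08 CPM, −0.62, edgeR adjusted p = 0.0397). Besides Rab27b, the mean p300 effect called Vamp8 (0.33, edgeR adjusted p = 0.00696) and Vps33b (0.24, edgeR adjusted p = 0.0217) higher. It called Slc35d3 lower (−1.01, edgeR adjusted p = 0.00502).

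Of 16 transcription factors of the lineage, 1 was called in p300KO against WT and 1 in the libraries labelled p300KO_Tet2KO against Tet2KO. Gata2, a stem and progenitor cell factor that also acts early in megakaryocytes, rose to 309 ± 46.4 CPM in p300KO, against 182 ± 15.0 CPM in WT (0.77, edgeR adjusted p = 0.00829). Mef2c, which acts in megakaryocytes and lymphoid progenitors, fell to 225 ± 14.8 CPM in the libraries labelled p300KO_Tet2KO, against 342 ± 56.8 CPM in Tet2KO (−0.60, edgeR adjusted p = 0.0193). Gata1, Fli1, Runx1, Gfi1b and Zfpm1 were called in neither. The mean p300 effect called both and also Tal1, a blood stem cell and megakaryocyte factor, which was higher (0.38, edgeR adjusted p = 0.0179). Gata1 was at 17.7 ± 5.89 CPM in p300KO and 14.1 ± 4.42 CPM in WT, and Fli1 at 163 ± 17.0 and 163 ± 9.26 CPM.

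Among 20 platelet receptors and signalling genes Ptgs1, the cyclooxygenase of platelets, rose to 70.9 ± 2.22 CPM in the libraries labelled p300KO_Tet2KO, against 48.9 ± 4.77 CPM in Tet2KO (0.53, edgeR adjusted p = 0.0196). It also rose in Tet2KO, against 32.8 ± 1.87 CPM in WT (0.58, edgeR adjusted p = 0.0398), and in the libraries labelled p300KO_Tet2KO against p300KO at 43.9 ± 6.62 CPM (0.69, edgeR adjusted p = 0.0150). Treml1, a granule membrane receptor of platelets, was higher in p300KO than in WT (1.43, edgeR adjusted p = 0.0445) and Tbxa2r, the thromboxane receptor, lower (−1.26, edgeR adjusted p = 0.0413). The mean p300 effect called 2 genes of this list higher and 3 lower. Among them, Ptgs1 (0.48, edgeR adjusted p = 0.00221) and Tbxas1 (0.39, edgeR adjusted p = 0.00872) were higher. Tbxa2r (−1.13, edgeR adjusted p = 0.00555) and Rasgrp2 (−0.41, edgeR adjusted p = 0.0334) were lower. Of 15 proplatelet cytoskeleton genes Tpm4, a tropomyosin, fell in the libraries labelled p300KO_Tet2KO against Tet2KO (31.8 ± 3.70 and 55.9 ± 3.97 CPM, −0.82, edgeR adjusted p = 0.0199), and no gene was called in p300KO against WT. Tubb1, the platelet tubulin, was at 6.09 ± 4.24 CPM in p300KO and 2.10 ± 0.513 CPM in WT, a difference of 1.55 (SE 0.61) that was not called (edgeR adjusted p = 0.221). It was at 1.24 ± 0.310 CPM in the libraries labelled p300KO_Tet2KO, a difference of −2.33 from p300KO that was also not called (edgeR adjusted p = 0.171).

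Markers of other cells were read beside these results, and their part in them was not tested. Endothelium also makes Vwf and Selp, and its defining gene Cdh5 was at 0.0443 to 0.156 CPM in Tet2KO and 0.188 to 0.669 CPM in WT. The 12 endothelial genes summed to 33.2 to 64.7 CPM in Tet2KO, where Selp was high, and to 55.0 to 71.6 CPM in WT, and none was at 0 in every library. Of the 9 tested, 1 was called in that comparison, Emcn, which was lower (−1.32, edgeR adjusted p = 0.0127). Tek, the angiopoietin receptor of endothelium and stem cells, was read with the stem cell-enriched list and was higher, at 28.1 ± 2.35 CPM in Tet2KO and 13.9 ± 0.640 CPM in WT (1.01, edgeR adjusted p = 0.0402). The 13 granulocyte and monocyte genes summed to 2481 to 5568 CPM in Tet2KO and to 1528 to 2239 CPM in WT, and 1 of 12 tested, Csf1r, was higher (1.38, edgeR adjusted p = 0.0259). The 12 lymphoid genes summed to 278 to 670 CPM in Tet2KO and to 846 to 1144.5 CPM in WT. The 10 tested had values of −1.90 to −0.42 in that comparison (median −0.99), and 0 were called. For p300KO against WT, 8 of 10 tested lymphoid genes were lower, where 2.85% of all genes were called lower and 1.06% higher. The list of 12 summed to 126 to 227 CPM in p300KO and to 846 to 1144.5 CPM in WT, while no tested gene of the erythroid, mast cell and basophil, granulocyte and monocyte, endothelial or stem cell-enriched lists was called. The 12 tested granulocyte and monocyte genes had values of 0.20 to 2.53 and a median of 0.85, with sums of 1889.5 to 3222 CPM in p300KO and 1528 to 2239 CPM in WT. In the libraries labelled p300KO_Tet2KO against Tet2KO 6 of 10 lymphoid genes were lower, with sums of 48.9 to 96.6 CPM against 278 to 670 CPM, where 2.89% of all genes were called lower and 1.01% higher. There the monocyte genes Csf1r (−1.10, edgeR adjusted p = 0.0259) and Ly6c2 (−2.12, edgeR adjusted p = 0.0441) were lower beside F13a1, 2 of 12 tested in their list, which summed to 1990 to 2554 CPM against 2481 to 5568 CPM. Values of the 12 ran from −2.12 to 1.29 with a median of −0.69, and the highest, S100a9, was not called (edgeR adjusted p = 0.363). Mcpt8 was 1 of 9 mast cell and basophil genes and lower (−1.98, edgeR adjusted p = 0.00960), and of 15 stem cell-enriched genes Slamf1 was lower (−1.27, edgeR adjusted p = 0.0169) and Ctnnal1 higher (0.44, edgeR adjusted p = 0.0367). For the libraries labelled p300KO_Tet2KO against p300KO, where Pf4 fell, the 12 mast cell and basophil genes summed to 74.2 to 98.9 CPM against 128 to 194 CPM, and 1 of 9 tested, Ms4a2, was lower (−1.85, edgeR adjusted p = 0.0174). The 12 lymphoid genes there summed to 48.9 to 96.6 CPM against 126 to 227 CPM, and 1 of 10 tested, Il7r, was lower (−1.62, edgeR adjusted p = 0.0185). No tested gene of the erythroid, granulocyte and monocyte, endothelial or stem cell-enriched lists was called in that comparison.

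The genes whose levels ran most like the mean standardised log2 level of the 9 genes were sought over the 12 libraries among 10341 genes of at least 5 CPM. Standardised means that each gene was centred on its own mean and divided by its own SD, so that all 9 weigh alike. The libraries share their groups, so the values are descriptions. The closest was Smarcal1 (Pearson's r = 0.947), a DNA replication fork remodeller, then Hvcn1 (0.925), a proton channel, and Cd9 (0.894). Cd9 was also the gene most like Itga2b (r = 0.957, and 0.935 without the 2 libraries farthest from the median), and Gp5 was the most like it among the 9 (r = 0.945). Pf4 was nearest to Vwf among the 9 (r = 0.802), and Selp was nearest to Itgb3 with r = 0.519. Nfe2 ran with none of the other 8 above r = 0.453, and without the 2 libraries farthest from its median this value was −0.21.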

How the data were processed

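The libraries were rRNA-depleted and sequenced as 100 bp read pairs. Per the labels and methods, the authors aligned reads to mm10 with STAR 2.6.0c and deposited RSEM 1.3.0 expected counts per gene, unscaled. The Gencode release and whether strand was used are not given in the sources used here. The study corrected counts for unwanted variation with RUVseq on ERCC spike-ins. The table holds 0 spike-in genes, so that step was not repeated.

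Expected counts were rounded, filtered with filterByExpr (17842 of 46517 genes kept), scaled by TMM and fitted in edgeR 4.0.16 (R 4.3.3) by quasi-likelihood with 4 groups of 3 libraries in 1 fit. CPM use the TMM library sizes. p-values were adjusted by Benjamini-Hochberg over all genes tested, with a threshold of 0.05. Log2 values for likeness used a prior count of 2. The study's methods call the 3 libraries of a group independent biological replicates, and the labels name no animals. An exact permutation test of 3 against 3 libraries cannot go below 0.1 and was not used. Positions and exon lengths are those of Gencode vM21 on mm10. The fits were tested on simulated data. Alternatives were DESeq2 1.42.0 size factors and Wald test, limma-voom (limma 3.58.1), other filters, fewer libraries, a replicate block and a sex covariate.

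Named genes were the 9 genes in every comparison, up to 4 other called genes of each list by smallest p, some well-known list genes that were not called, chosen after their values were seen, and the genes most like the 9. The genes and lists were chosen with earlier results of these data known. Some items are not reported here. The replicate numbers were not used to pair the libraries in the main fit.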

Additional observations from a re-analysis of the deposited data

How the results depend on the processing

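Of all fits of single genes under the alternatives, 1015 kept their direction and side of the threshold, 31 lost a call, 25 gained one and 45 changed sign. The causes were not tested. The DESeq2 Wald test called 2 of the 9 genes in the libraries labelled p300KO_Tet2KO against Tet2KO, 3 in Tet2KO against WT and 1 in the interaction, with 1252, 488 and 49 of all genes, and 1219 of all genes in p300KO against WT and 351 in p300KO_Tet2KO against p300KO. limma-voom called 2 of the 9 and 815 of all genes in p300KO_Tet2KO against Tet2KO and 2 and 170 in Tet2KO against WT. It turned Rab27b in p300KO_Tet2KO against Tet2KO to −0.0095, Vwf in the mean p300 effect to 0.081 and Pf4 in Tet2KO against WT to −0.079. With no filter 3 of the 9 and 227 of all genes were called in Tet2KO against WT, 155 in p300KO_Tet2KO against p300KO and 2 in the interaction. With only the 6 libraries compared, 0 of the 9 and 345 of all genes were called in p300KO_Tet2KO against Tet2KO and 58 of all genes in Tet2KO against WT.

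Same-numbered libraries had correlations of −0.152 to 0.135 (5 of 18 over 0.1), and differently numbered ones of −0.205 to 0.192. Of 12 libraries 5 were closest to their own number, so no general pairing by number was seen. Between replicate 3 libraries the values ran from −0.0608 (WT and p300KO_Tet2KO) to 0.126 (Tet2KO and p300KO_Tet2KO). Whether the replicate 3 libraries share a factor was not tested. The replicate block called 0 of the 9 and 597 of all genes in p300KO_Tet2KO against Tet2KO, 2 and 158 in Tet2KO against WT and 2 and 97 in p300KO_Tet2KO against p300KO, and 2 of all genes in the interaction, and gave Pf4 −0.044 in Tet2KO against WT. The sex covariate called 2 of the 9 and 854 of all genes in p300KO_Tet2KO against Tet2KO and gave Rab27b −0.042 there, Selp −0.039 in p300KO against WT and Pf4 −0.35 in Tet2KO against WT. Without replicate 3 of all 4 groups, chosen after the data were seen, 2 of the 9 and 410 of all genes were called in p300KO_Tet2KO against Tet2KO, 456 of all in p300KO against WT, 0 of the 9 and 82 of all in Tet2KO against WT, 58 of all in p300KO_Tet2KO against p300KO and 21 in the interaction. It gave Vwf 0.13 in the mean p300 effect, Pf4 −0.20 and Nfe2 −0.019 in Tet2KO against WT, and Itgb3 0.072 and Gp5 0.095 in p300KO_Tet2KO against p300KO.

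Leaving out 1 library at a time, between 0 and 1 of the 9 genes and 387 to 767 of all genes were called in p300KO_Tet2KO against Tet2KO, 2 to 5 and 244 to 900 in p300KO against WT, 3 to 4 and 1163 to 1806 for the mean p300 effect, 0 to 2 and 36 to 205 in Tet2KO against WT, 0 to 1 and 39 to 148 in p300KO_Tet2KO against p300KO, and 0 and 0 to 14 in the interaction. The lowest counts of all genes came without WT replicate 1 in p300KO against WT and in Tet2KO against WT, without p300KO_Tet2KO replicate 3 in p300KO_Tet2KO against Tet2KO, and without p300KO replicate 2 in p300KO_Tet2KO against p300KO. Log2 values that changed sign then ranged as follows. In Tet2KO against WT Pf4 was −0.61 to 0.42, Gp9 −0.038 to 0.11, Nfe2 −0.045 to 0.063 and Gp5 −0.030 to 0.30. In p300KO against WT Nfe2 was −0.020 to 0.18 and Selp −0.075 to 0.65. In p300KO_Tet2KO against Tet2KO Itgb3 was −0.14 to 0.29 and Rab27b −0.10 to 0.072. In p300KO_Tet2KO against p300KO Nfe2 was −0.069 to 0.17 and Itgb3 −0.46 to 0.049. For the mean p300 effect Vwf was −0.22 to 0.16 and Selp −0.32 to 0.078, and the interaction of Nfe2 was −0.10 to 0.15. Dividing by the longest transcript gave 41.0 CPM per kb for Itga2b, 2.47 for Rab27b, 3.94 for Vwf and 101 for Nfe2.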
